A study of Homo sapiens with 7 samples.

Results

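Summed over early and late S phase, newly made DNA was taken as a readout of how much template each stretch of the genome offered. Each channel was divided by its own autosomal median before summing, so the sum can still vary with the time of replication. This total was compared between K562 (n = 3 arrays) and U2OS (n = 4 arrays), the cell lines of a replication timing series of 7 two-colour arrays. K562 is a line grown from a chronic myelogenous leukaemia, U2OS from an osteosarcoma. The comparison set the K562 array labelled as sorted by a new method (n = 1) against the U2OS arrays labelled Automated 1 and 2 (n = 2), and the remaining 4 arrays, K562 sorted by the old method (n = 1), K562 labelled 44k (n = 1) and U2OS labelled Manual 1 and 2 (n = 2), were used to check it. All cells had taken up bromodeoxyuridine at 50 µM for 2 h, and 80000 cells were sorted by DNA content into an early and a late fraction, whose nascent DNA was immunoprecipitated, amplified and hybridised as Cy3 (early) and Cy5 (late). No label says that arrays of a line came from separate cultures, so the p-values given here measure only the spread between these arrays, which may be technical. Every autosomal probe entered: 161097 probes on the 3 arrays of the comparison, in 2695 windows of 1 Mb with at least 5 probes, and in 39 chromosome arms.

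Cancer cell lines carry extra, lost and rearranged chromosome segments. A chromosome arm present in more copies gives more nascent DNA, and a stretch deleted from every copy gives none. K562 is known for the Philadelphia translocation, which joins BCR on chromosome 22 to ABL1 on chromosome 9 and which this line carries in many copies, and for loss of the CDKN2A region on 9p. The signal measured here is relative to each array's own autosomal median. A gain in K562 therefore cannot be told apart from a loss in U2OS unless one line's signal falls to the level of negative-control spots, and less nascent DNA cannot be told apart from fewer template copies.

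The probes on either side of the steps at BCR and ABL1, and a probe each from the 9p and the 19p runs of low signal, are shown as examples of the local differences. Their sequences are given as in the deposited tables, on build hg19, in lower case throughout.
BCR, last probe before the step, chr22:23627339-23627391: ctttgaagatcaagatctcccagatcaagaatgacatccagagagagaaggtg
BCR, first probe after the step, chr22:23634972-23635024: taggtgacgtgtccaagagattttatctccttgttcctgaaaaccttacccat
ABL1, last probe before the step, chr9:133599008-133599067: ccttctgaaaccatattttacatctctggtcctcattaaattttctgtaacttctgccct
ABL1, first probe after the step, chr9:133614692-133614751: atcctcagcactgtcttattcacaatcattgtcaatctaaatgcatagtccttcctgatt
9p probe without a gene name, chr9:22431085-22431144: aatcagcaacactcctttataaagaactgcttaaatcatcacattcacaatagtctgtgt
19p probe without a gene name, chr19:22351753-22351812: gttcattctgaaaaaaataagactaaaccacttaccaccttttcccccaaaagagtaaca
As a percentage of the array's median summed signal, the 9p probe read 2.40% (K562, new sorting), 45.7% (K562, old sorting), 124% and 99.5% (U2OS, manual 1 and 2) and 94.0% and 92.2% (U2OS, automated 1 and 2). The 19p probe read 289% and 230.5% in K562 (new, then old sorting), 89.6% and 46.1% for U2OS manual 1 and 2, and 38.1% and 55.2% for U2OS automated 1 and 2. Both were chosen as the unnamed probe of their region with values nearest 100% in the line that kept the signal, so they test nothing. The 19p probe shows the ratio of its run (2.62, run 2.56) but not its low level. It read above 25% on every U2OS array and far above 100% in K562. Its run read 5.92% and 14.7% on automated 1 and 2, and 87.5% and 91.1% in K562 (new, then old sorting).

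The arrays differed in brightness. The median probe lay 31.0 to 204 units above the negative controls in the early channel and 39.7 to 218 in the late channel, and both channels were well above background at 91.5% and 88.4% of probes for U2OS automated, 53.1% and 35.0% for U2OS manual, and 53.4%, 41.1% and 9.14% for K562 new sorting, old sorting and 44k. The 95th percentile of the negative controls stood at 14.4%, 28.9% and 66.9% of the median summed signal for the same K562 arrays, and at 4.23% to 27.6% for U2OS. The array labelled 44k lay closer to the new-sorting array (r = 0.944 over 47698 shared probes) than the old-sorting array did (r = 0.774 over 160666 probes), and its labels do not say whether its DNA was prepared separately, so values of the old-sorting array are also given alone.

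Windows of K562 and U2OS differed over wide stretches. Of 2695 windows, 489 (18.1%) were higher in K562 by 0.5 or more on the log2 scale and 541 (20.1%) were lower by as much, with an SD over windows of 0.66 and a range from -4.35 to 2.61. With 1 K562 array these shares carry no test. Before centring on the median window the ratio stood 0.11 higher, and without that centring 60.4% of the windows past the threshold were higher in K562, against 47.5% with it. The same threshold was also passed within a line: automated over manual U2OS gave 16.8% of windows past it (SD 0.38) and K562 new over old sorting 13.5% (SD 0.34), whereas the automated arrays against each other had an SD of 0.13 and the manual arrays an SD of 0.25. K562 new sorting over 44k had an SD of 0.11, with 5 of 2641 windows past the threshold, all lower. As a check of the new-sorting array, the 44k array may thus not be independent. Windows higher in K562 were also later replicating there: their median timing, log2 early over late relative to the array median, was -1.16 in K562 and -0.57 in U2OS, and the median of the per-window timing differences was -0.51, against -0.19 over all windows. Among the 1392 windows whose timing differed by no more than 0.5 between the lines, 11.6% were higher and 23.8% lower. After a linear fit on the timing of both lines, 475 windows were higher and 521 lower. Such a fit takes out only a linear dependence. Over 2695 windows the ratio had r = -0.06 with the timing difference, -0.18 with the timing of K562 and -0.17 with that of U2OS.

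**Figure D1:**
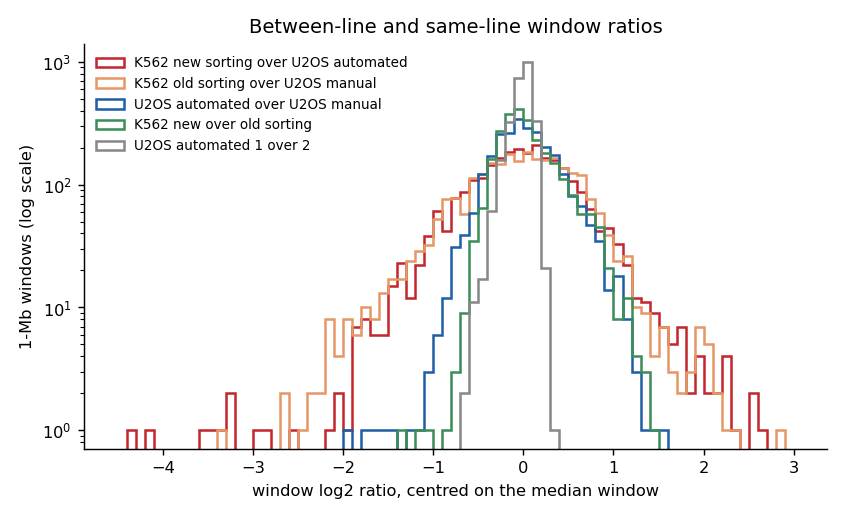
Number of 1-Mb windows (log scale) against the window log2 ratio for comparisons between the lines and within a line, each centred on its median window; the step lines are histograms in bins of 0.1. Both comparisons of K562 with U2OS spread more widely (SD 0.66 and 0.67) than automated over manual U2OS (0.38), new over old K562 (0.34) or the automated arrays against each other (0.13).

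On the 4 arrays that the comparison had not used, most of these windows had the same sign. Of the 466 higher windows measured there, 425 (91.2%) were again higher in K562, and of 528 lower windows 461 (87.3%) were again lower. Windows that had stayed within 0.5 kept their sign in 65.7%. Past a difference of 1 the share was 95.6%, 263 of 275 windows. These shares include the array labelled 44k, which may not be independent of the new-sorting array that picked the windows. They were not counted on the old-sorting array alone. limma called 197 of 2640 windows (7.46%) higher and 210 (7.95%) lower in K562 on these arrays at a Benjamini-Hochberg adjusted p under 0.05, 15.4% in both directions together, while 902 windows had an unadjusted p under that level. Of the windows higher in the first comparison 145 were called higher, of the lower ones 160 were called lower, and no window of either set was called the opposite way (0 and 6 at an unadjusted p under 0.05 by limma); among windows within 0.5, 88 were called with and 14 against their sign. The window ratios of both comparisons had r = 0.71 over 2640 windows, and r = 0.66 for the old-sorting array alone. These correlations run across windows, which share probes' base composition and the arrays' median and are not replicates. Leaving out a manual U2OS array lowered the calls to 39 higher and 36 lower (without manual 1) or 47 and 39 (without manual 2), and leaving out the array labelled 44k raised them to 416 and 469.

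**Figure D2:**
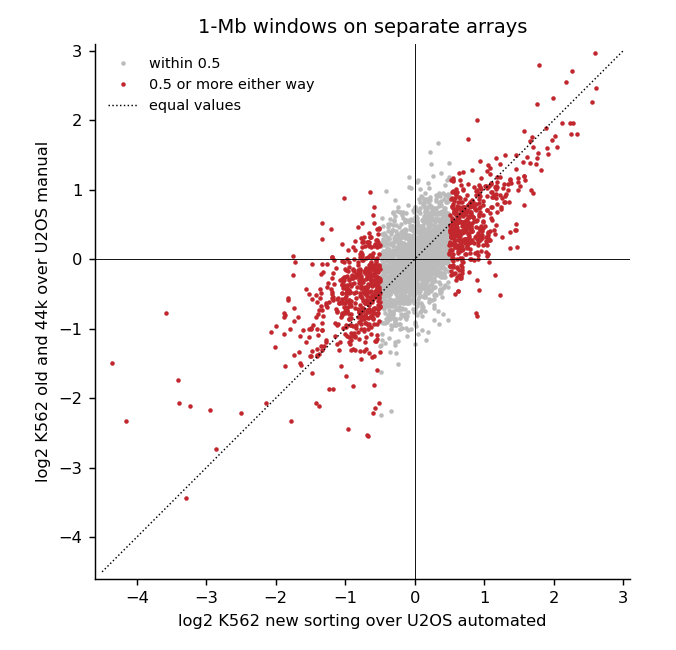
Each point is a 1-Mb window, with the log2 ratio of the new-sorting K562 array over the automated U2OS arrays on the x axis and of the other K562 arrays over the manual U2OS arrays on the y axis; the dotted line marks equal values. Red windows, 0.5 or more either way on the x axis, had the same sign on the y axis in 91.2% (higher) and 87.3% (lower) of cases.

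Arms that gave more nascent DNA in K562 were 7q (1.04), 6p (0.76), 6q (0.49), 8p (0.41), 1q (0.40) and 21q (0.32), 6 of 39 arms (15.4%) past 0.3 as a median log2 ratio over windows. Arms that gave less were 12p (-1.20), 9p (-1.0), 22q (-0.78), 17q (-0.65), 14q (-0.60), 3q (-0.52), 10q (-0.52), 7p (-0.47), 20p (-0.40), 17p (-0.35) and 19q (-0.31), 11 arms (28.2%). The other 22 arms lay between -0.28 and 0.22. In windows matched in timing 21q stood at -0.0090, the only one of the 17 arms to change sign under an alternative tried; 6p fell to 0.31, 7p stood at -0.31 and 9p at -0.57. The ratio had the same sign in the early and in the late channel for all 17 arms. These arms were picked on the sum of both channels, so that is largely built in, and most of the other 22 arms had it too. The largest difference for an arm was 0.12 between the 2 automated arrays.

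The check arrays repeated 7q and 12p most clearly. Given per array relative to the midpoint of the lines' means, 7q stood at 0.51, 0.45 and 0.42 (log2) on the new-sorting, old-sorting and 44k K562 arrays, and at -0.39, -0.38, -0.49 and -0.50 on manual 1 and 2 and automated 1 and 2 of U2OS. All K562 arrays lay above all U2OS arrays. On the 4 check arrays alone the difference was 0.82 with a standard error of 0.04 (limma adjusted p = 0.0016). 12p stood at -0.46, -0.39 and -0.42 on the K562 arrays and at 0.18, 0.26, 0.61 and 0.64 on the U2OS arrays in the same order, again without overlap. Its difference on the check arrays was -0.65 with a standard error of 0.06 (limma adjusted p = 0.0072).

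Of the 17 arms, 16 kept their sign on the check arrays and 10 passed there: 1q (0.44), 6q (0.36), 7q, 8p (0.33) and 21q (0.25) upwards, and 3q (-0.26), 10q (-0.33), 12p, 14q (-0.47) and 20p (-0.39) downwards. That compares with 15 of all 39 arms passing (38.5%), so the share in the list of 17 is to be read against a high background. By the same limma test 6p (0.24, adjusted p = 0.072), 7p (-0.25, adjusted p = 0.072), 9p (-0.34, adjusted p = 0.067), 17p (-0.15, adjusted p = 0.12) and 22q (-0.31, adjusted p = 0.12) had the same sign without passing. 17q was near 0 on the check arrays (-0.04, standard error 0.08), and 19q had the opposite sign (0.29, standard error 0.09, limma adjusted p = 0.072). 5 further arms passed on the check arrays although they lay within 0.3 in the first comparison: 8q (-0.42), 11p (0.33), 13q (0.25), 16q (0.30) and 20q (-0.26). Of these, 11p had the opposite sign in the first comparison, at -0.07. With the old-sorting array left out, 0 arms passed by limma, and 14 had an unadjusted p under 0.05.

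The U2OS arrays differed among themselves on more arms than the K562 arrays did. Automated stood above manual by 0.59 on 17q, 0.53 on 19q, 0.49 on 12p, 0.41 on 9p and 0.37 on 11p, and the difference was -0.43 on 18p and -0.40 on 5p. In all, 10 arms differed past 0.3, whereas K562 new and old sorting differed past 0.3 on 1 arm, 5p (0.33). Counted over all 7 arrays, the K562 and U2OS values did not overlap on 23 of 39 arms (59%), and on 15 of the 17 arms named above. The 17 were picked on the new-sorting and automated arrays, which are among these 7, so their share is partly built in. Handling and anything else that differed between these pairs of U2OS arrays cannot be told apart.

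**Figure D3:**
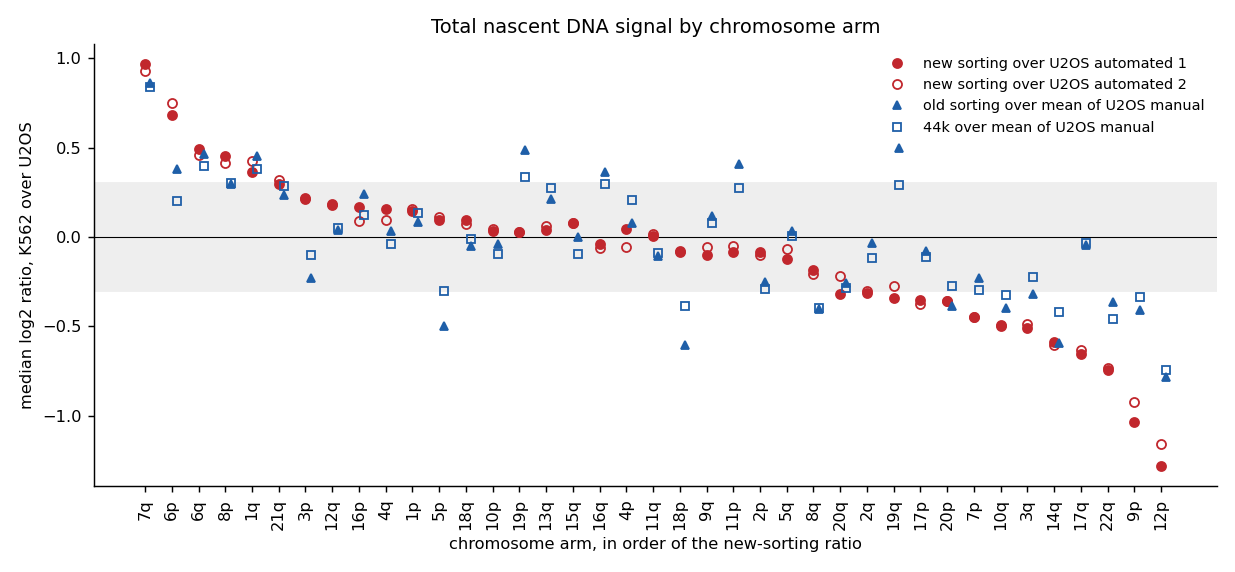
Median log2 ratio of K562 over U2OS for the 39 autosomal arms in order of the new-sorting ratio; circles are the new-sorting array over each automated array, triangles and squares the old-sorting and 44k arrays over the mean of the manual arrays, and the grey band marks values within 0.3. 7q is the highest (0.97 and 0.93 against the single automated arrays) and 12p the lowest (-1.28 and -1.16), while 19q, 17q and 11p differ between the circles and the other symbols.

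Within arms, the differences came in blocks. Runs of at least 3 windows whose running median over 5 windows passed 0.5 formed 48 higher segments (395 windows, 14.7% of all) on 24 arms and 35 lower segments (440 windows, 16.3%) on 23 arms, from 3 to 57 windows long with a median of 6. On the check arrays 44 of the 48 and 33 of the 35 kept their sign (92.8% together), and 66 of the 83 passed 0.25 in that direction. On the old-sorting array alone 75 of 83 kept their sign. Single windows within 0.5 in the first comparison kept theirs on the check arrays in 65.7%. The shares over all stretches of such length were not counted, so the segment counts lack a background of their own. The 6 segments that did not keep their sign on the check arrays were 9q 136 to 141 Mb, 10q 133 to 136 Mb, 3q 164 to 167 Mb, 4q 96 to 99 Mb, 12q 128 to 131 Mb and 16p 33 to 36 Mb. On 9q and 10q of these, automated exceeded manual U2OS by 1.01 and 1.15, beside ratios of K562 over automated U2OS of -0.81 and -0.64.

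The longest higher segment was the distal part of 7q, 103 to 160 Mb, with a median of 1.34 over 57 windows, 1.17 on the old-sorting array and 1.09 on the array labelled 44k; limma called 50 of its 56 windows measured on the check arrays. It holds CNTNAP2 and DPP6, which code for a neuronal adhesion protein and a potassium channel subunit. MET, a receptor tyrosine kinase there, had 215%, 179% and 259% of the array median on the new-sorting, old-sorting and 44k K562 arrays and 69.8% to 79.9% on the 4 U2OS arrays. The highest segment was 13q 90 to 94 Mb at 2.19 (2.03 and 2.84 on the old-sorting and 44k arrays), the site of MIR17HG, host transcript of an oncogenic microRNA cluster, and of the glypican genes GPC5 and GPC6. It was also late in K562 against U2OS (timing difference -1.69). Its ratio was 1.02 in the early channel alone, 2.47 in the late channel alone and 2.0 after a linear fit on timing. 21q 37 to 43 Mb, with the transcription factor gene ERG and the adhesion gene DSCAM, reached 1.46 (1.5 on the old-sorting array, and 0.71 in its windows matched in timing).

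The remaining high segments varied in how far they repeated. 19p 20 to 25 Mb, a zinc finger gene cluster, had 1.67 (1.96 on the old-sorting array) and overlaps the U2OS runs of low signal described with the deletions. 11q 97 to 100 Mb, at the adhesion gene CNTN5, had 1.37 against 0.33 on the old-sorting array, with a timing difference of -1.04. 16p 33 to 36 Mb had 1.42 against -0.12 on the old-sorting array, only 1 of its windows was measured on all check arrays, and its windows matched in timing gave -0.22.

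The lowest segments were 7p 0 to 8 Mb (-1.81), 9p 12 to 36 Mb (-1.38), 12p 0 to 31 Mb (-1.35), 13q 112 to 116 Mb (-1.03), 1p 80 to 83 Mb (-0.99) and 16q 87 to 91 Mb (-0.98). The old-sorting array over manual U2OS gave -0.64, -0.96, -0.83, -0.23, -1.51 and 0.20 in the same order, and the array labelled 44k gave -0.76, -0.60, -0.85, -0.21, -0.15 and 0.11. 7p, 9p and 12p were lower on both arrays, 1p mainly on the old-sorting array, and 16q did not repeat. Automated over manual U2OS was 0.86 for 7p and 0.92 for 16q. On 12p the segment holds SOX5, a transcription factor gene, and CACNA1C, a calcium channel gene. 22q was split. Its first windows, 17 to 24 Mb with BCR, were higher in K562 (0.93, and 1.08 on the old-sorting array), and the rest, 24 to 52 Mb, was lower (-0.83 and -0.44).

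Deletions were sought as runs of at least 10 probes whose running median over 9 probes fell below 25% of the array's median summed signal in one line while the other kept at least 50%. K562 had 15 such runs with 410 probes (0.254% of all probes) on 5 arms, U2OS 9 runs with 120 probes (0.0744%) on 4 arms. On the old-sorting and manual arrays the lines did not overlap in 13 of the 15 and in 8 of the 9 runs. On the same arrays the line with the low signal read below 50% of the other line in 12 and in 7 of them. With so few arrays, values can lie apart by their order alone. The share of all probe runs without overlap was not counted, so these counts have no background to be read against.

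The largest K562 loss lay on 9p. 8 of the 15 runs fell between chr9:20778714 and chr9:31654294, a span of 10.9 Mb with 508 probes, and these 8 held 312 probes. Over the 312 probes the median was 0.38%, 12.2% and 11.0% of the array median for K562 new sorting, old sorting and 44k. Each lay below the 95th percentile of that array's negative controls, a weak limit on the 44k array, where it was 66.9%. The U2OS arrays read 86.2%, 77.1%, 89.3% and 99.96% (manual 1 and 2, automated 1 and 2). The runs were defined on the new-sorting and automated arrays, so only the old-sorting, 44k and manual values are a check. On these K562 was again low and U2OS was not. The 2 Mb before the span read 85.0% and the 2 Mb after it 63.5% on the new-sorting array, so the drop was bounded on both sides.

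Genes in the span include the interferon genes IFNB1 and IFNA2, antiviral cytokines, and MTAP, a methionine salvage enzyme. CDKN2A codes for the cell cycle inhibitors p16 and p14ARF, and ELAVL2 for a neuronal RNA-binding protein. MTAP (5 probes, chr9:21805270-21863263) read -3.98%, -4.75% and 1.17% on the new-sorting, old-sorting and 44k K562 arrays and 45.6% to 76.6% on the U2OS arrays, values below 0 lying under the median negative control. CDKN2A (3 probes, chr9:21968041-21990581) read -0.15%, 21.2% and 35.1% on the K562 arrays and 53.6% to 72.8% on the U2OS arrays. ELAVL2 (11 probes) read -6.76%, 6.53% and -7.80% against 43.9% to 83.6%.

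The 9p loss was not even. Between 2 of the runs, chr9:26600444-28546993 kept signal in K562: 43.8%, 49.7% and 47.1% on its 3 arrays over 126 probes, against 179%, 183.5%, 179% and 179.7% in U2OS. TEK, an endothelial receptor kinase gene in this stretch, read 69.2%, 52.7% and 113% in K562 and 160.2% to 329.8% in U2OS. MLLT3, a partner gene of leukaemia translocations lying just before the span, read 102%, 92.2% and 118% in K562. Of the 12 genes listed for the 9p21 neighbourhood 5 had 3 or more probes, and all 5 were lower by 0.5 or more (median -2.20). In this contrast 26.8% of the 10921 genes measured that way were lower, and the median gene stood at -0.05. On the old-sorting array 4 of the 5 had the same sign, and MLLT3 (-0.65, old-sorting 0.14) did not. Of all genes past 0.5 (2358 higher, 2924 lower), 3941 kept their sign there.

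**Figure D4:**
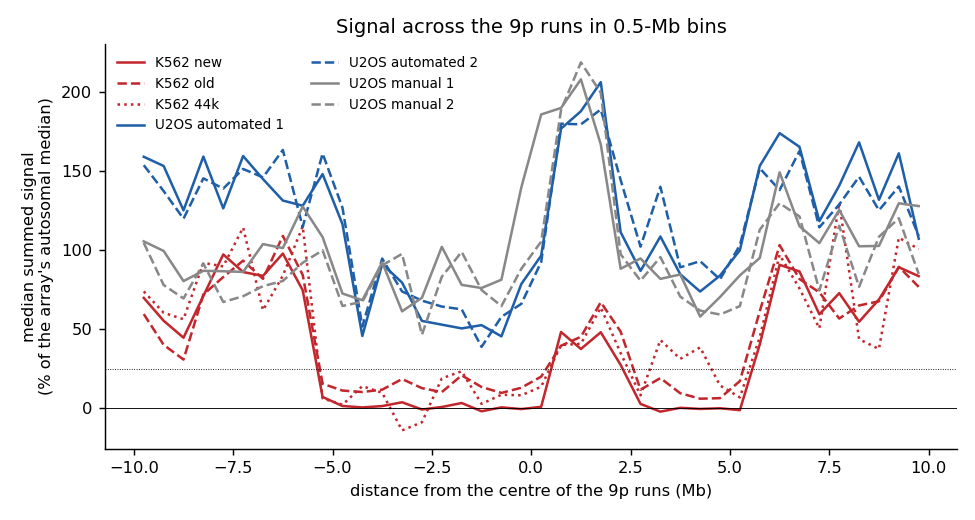
Median summed signal in 0.5-Mb bins, as a percentage of each array's autosomal median, against the distance in Mb from the centre of the 9p runs; each line is an array, and the dotted line marks 25%. The K562 arrays drop to medians of 0.38% to 12.2% over all probes of the runs and return to 43.8% to 49.7% over the stretch just right of the centre, while the U2OS arrays have medians of 77.1% to 99.96% over all probes of the runs, with single bins down to 38.7%, and read 179% to 183.5% over that stretch.

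The other 7 K562 runs were short, 98.7 to 316 kb, and 3 of them (at C10orf76, RRP12 and CACNA2D2) read below the 14.4% that 95% of negative controls on the new-sorting array did not exceed. At C10orf76 on 10q, chr10:103617421-103818373, 17 probes read 2.03% and 12.8% in K562 (new, then old sorting) against 97.5% to 129% in U2OS. On the 5 of them that the array labelled 44k holds it read 86.7%, and the new-sorting array 34.0%. The run at RRP12, PGAM1 and FRAT2, chr10:99093186-99191917, read 13.5%, 17.2% and 12.8% in K562 and 56.7% to 108% in U2OS. The run in the axon guidance receptor gene ROBO1, chr3:79425356-79547211, read 26.8%, 23.7% and 11.48% against 68.5% to 114%. The run at CACNA2D2 and MAPKAPK3, chr3:50500478-50679168, read 11.6% and 25.5% in K562 (new, then old sorting) against 36.9% to 97.4% in U2OS. The array labelled 44k holds 7 of these 15 probes, over which it read 69.5% and the new-sorting array 53.5%. A run without gene names on 9q, chr9:83136286-83385749, read 19.96%, 26.3% and 5.99%. The runs at GPR123 and KNDC1 on distal 10q and at BAIAP2 on 17q overlapped between old-sorting K562 (41.9% and 40.7%) and manual U2OS (30.0% to 50.2% and 23.9% to 52.4%).

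The U2OS runs were judged on the automated arrays, where their medians were 5.92% to 22.9%, each above the 95th percentile of that array's negative controls (4.23% and 7.87%). On the dimmer manual arrays that percentile was 14.3% and 27.6%, and some runs lay below it, such as LRP1B (14.3% on manual 2). 5 of the 9 runs lay in the zinc finger cluster of 19p between chr19:20760439 and chr19:23153772, at ZNF626, ZNF85, ZNF430, ZNF208, ZNF257, ZNF43, ZNF98, ZNF676 and ZNF99. The run at ZNF98 and ZNF676 read 5.92% and 14.7% (automated 1 and 2) and 17.3% and 11.3% (manual 1 and 2), and 87.5%, 91.1% and 116% on the K562 arrays of new sorting, old sorting and 44k. The run in DPP6 on 7q, chr7:153891336-154038946, read 5.92%, 17.5%, 22.6% and 14.1% in U2OS (automated 1 and 2, manual 1 and 2) and 164%, 153% and 121% in K562. The run in LRP1B on 2q, a large lipoprotein receptor gene, read 13.8% to 20.5% in U2OS and 55.9% to 64.0% in K562. The run at CSMD1 on 8p overlapped, with 37.6% on the old-sorting array against 43.6% and 40.3% on the manual arrays.

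At the other extreme, runs of at least 10 probes with a running median ratio of 2 or more were looked for after the narrow peaks had been seen. K562 was higher in 35 such runs (713 probes, 0.442%) on 7q, 9q, 12q, 13q and 21q, and all 35 were higher by 1 or more on the old-sorting array. Most of the 35 lay within the 7q segment from 103 to 160 Mb. That segment as a whole stood at 1.17 on the old-sorting array, so these runs are not independent repeats. The share of all probes past 1 on that array was not counted. U2OS was higher in 26 runs (444 probes, 0.275%), of which 24 kept their sign and 14 passed 1. The run on 9q covered chr9:133647759-134105232, from ABL1, the kinase gene of the fusion, to the nuclear pore gene NUP214, over 38 probes. It read 632%, 629% and 501% on the new-sorting, old-sorting and 44k K562 arrays and 63.9%, 58.0%, 89.1% and 98.5% on the U2OS arrays, a ratio of 2.81 and, on the old-sorting array, 3.58. On 13q, 103 probes in chr13:90649903-92454207 at MIR17HG and GPC5 read 409%, 173% and 431% in K562 and 37.0% to 62.5% in U2OS. On 4p, 14 probes at the protocadherin gene PCDH7, chr4:30343502-30762741, went the other way, with 53.0%, 38.8% and 67.5% in K562 and 224% to 280.4% in U2OS.

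The steps at BCR and ABL1 lay inside the genes. In BCR, the 9 probes from chr22:23533447 to chr22:23627391 had a median ratio of 1.4 (2.14 on the old-sorting array), and the 3 probes from chr22:23634972 to chr22:23654222 had -1.04 (-0.57). The new-sorting array fell from 484% to 70.7% and the old-sorting array from 809% to 91.7% across that gap, while U2OS read 127% to 183% before and 119% to 157% after it. In ABL1 the order was reversed along the chromosome. The 2 probes up to chr9:133599067 had -0.51 (0.11 on the old-sorting array) and the 12 probes from chr9:133614692 on had 2.46 (2.92). The new-sorting array read 71.2% before and 719.5% after the split, and U2OS 57.4% to 98.4% before and 76.9% to 135% after it. The splits were placed where these values change most, so their size is a description. Single probes varied: in BCR before the split, new-sorting ratios ran from -0.11 to 3.17.

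**Figure D5:**
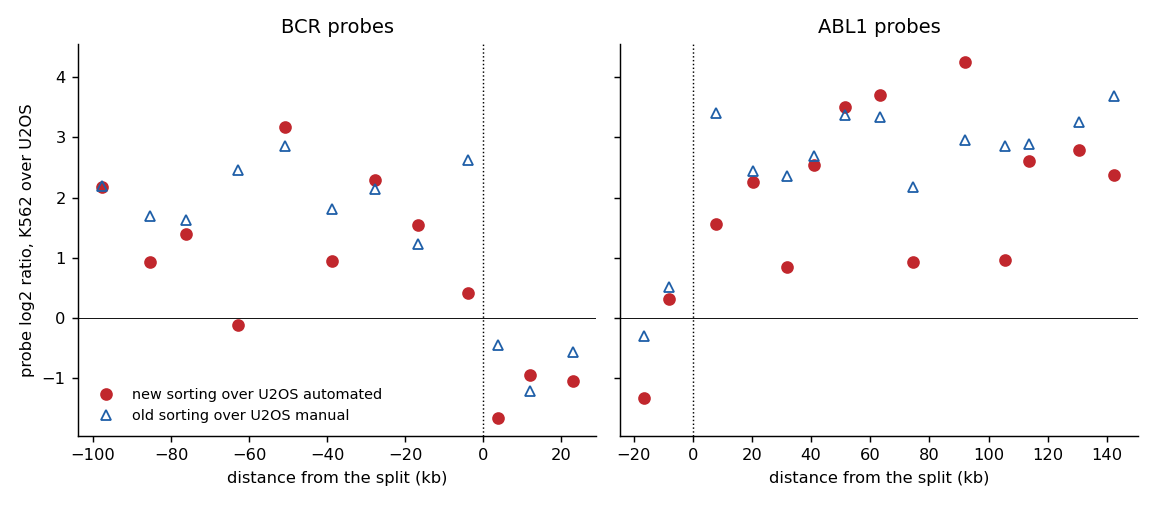
Log2 ratio of K562 over U2OS for each probe of BCR (left, 12 probes) and ABL1 (right, 14 probes) against its distance in kb from the split; filled circles are the new-sorting array over automated U2OS and open triangles the old-sorting array over manual U2OS. In BCR the values fall from a median of 1.4 to -1.04 across the split, in ABL1 they rise from -0.51 to 2.46.

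Among the genes listed for K562 fusions, 5 had 3 or more probes and 4 were higher by 0.5 or more, in a contrast in which 21.6% of genes were: NUP214 (2.84), ABL1 (2.31), the adaptor gene CRKL (2.02) and BCR (0.94), with GRID1 at -0.31. Of all genes past 0.5 (2358 higher, 2924 lower), 3941 kept their sign on the old-sorting array. All 4 of the fusion genes named as higher were higher there too. These values and the 9p loss match the features by which the label K562 was checked. Of 24 tumour suppressor genes measured, 1 was higher, FBXW7 (0.52), and 7 were lower (median -0.04), beside 21.6% of all genes higher and 26.8% lower. The lowest were CDKN2A (-2.20), SMARCB1 (-1.46), CHEK2 (-1.29) and TSC2 (-0.83), and after FBXW7 the highest were WWOX (0.46), SETD2 (0.41) and PBRM1 (0.36). SETD2 (-0.22) and PBRM1 (-0.83) had the opposite sign on the old-sorting array. Of 25 oncogenes, 5 were higher and 10 lower (median -0.36) beside the same shares of all genes. On the old-sorting array the median was 0.04 and 11 of these 15 kept their sign. That count is to be read against the 3941 of all genes past 0.5 that did so. The highest were MDM4 (1.56), BRAF (1.28), MET (1.24) and E2F3 (1.23). The lowest oncogene was PDGFRA, a growth factor receptor gene on 4q. It read 62.0%, 78.8% and 64.7% in K562 and 534%, 615%, 197% and 168% in U2OS (manual 1 and 2, automated 1 and 2), a ratio of -1.40 and, on the old-sorting array, -2.84; every U2OS array lay above every K562 array. BCL2L1 (-1.13), MYC (-1.11) and AURKA (-1.10) followed, and MYC had the opposite sign on the old-sorting array (0.43). The 9p21 and fusion lists were drawn up from what is known of K562, so their direction is no independent evidence.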

How the data were processed

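The deposited tables hold a spot intensity per channel for 7 two-colour arrays, written by Agilent Feature Extraction 11.5.1.1 per the file headers (9.1 in the submitters' processing notes), with probe positions and gene names on hg19. The mean intensity was used as deposited, and 6 arrays shared a design of 180880 features (44k: 62976). Control spots and spots marked as outliers or flagged by hand were left out. Saturated autosomal spots, 0 to 19 per array, were not removed for saturation. Per channel the median of the negative controls was subtracted and the result divided by the autosomal median; both channels were summed, set to a floor of 0.1, put on the log2 scale and differenced per probe. Window values are medians, centred on the median window; negative values in percent are unfloored. Arms were split at the largest probe gap (chromosomes 13, 14, 15, 21 and 22 as q arms, with the probes before that gap on chromosome 21 left out). Check arrays were fitted with limma 3.58.1 (lmFit, eBayes, Benjamini-Hochberg) in R 4.3.3. Timing is log2 of early over late. On simulated shifts of 1 and 2 log2 units in 100 windows each, limma recovered 88.0% and 100%, and called 15 of 2440 unshifted windows. The simulated noise was normal and independent between windows and arrays, with variances drawn toward their mean. It held no offsets shared by an arm and no differences in brightness, so these rates need not hold for the real arrays. An exact permutation test of 2 against 2 arrays cannot give a p below 0.333. Named were every arm past 0.3, the 6 highest and 6 lowest segments, up to 8 deleted regions a line and the 4 highest and 4 lowest genes of each list with at least 3 probes; other features, the probe runs of 2 or more and the splits were chosen after their values were seen. Members, thresholds and lists were chosen with earlier results of these data known. Alternatives were other channel sums, background corrections, floors, centring, window sizes, thresholds, timing terms and left-out arrays. The number of arrays limits the precision. The position of probes in exons or introns was not analysed here.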

Additional observations from a re-analysis of the deposited data

Results flagged for a closer look

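On 22q the U2OS array manual 2 stood apart from the other 3 U2OS arrays, with a level of 0.011 (log2, relative to the midpoint of the lines' means) against 0.32, 0.27 and 0.28 on manual 1 and automated 1 and 2. It was the only such value among 17 arms tested in the 4 U2OS arrays, and chance gives such a value in about 1 in 20 groups. The 22q ratio of the old-sorting array was -0.53 over manual 1 and -0.21 over manual 2.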

How the results depend on the processing

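Of 152 alternative values of the main counts and shares, 102 stayed within 1.5 times (or, for the share of segments, within its interval); the others follow, with the cause not tested where none is named. The arm counts of the first comparison stayed within that bound in all settings tried. Windows higher by 0.5 fell to 306 with normexp (offset 50), and windows matched in timing, fewer by construction, gave 162 higher and 331 lower. Windows of 0.5 Mb gave 1044 and 1121, windows of 2 Mb 230 and 244, and a threshold of 1 gave 134 and 156. Segments numbered 73 higher and 71 lower in the early channel alone, 73 and 57 in the late channel alone, 29 and 23 with a running median of 9 windows, and 9 and 15 at a threshold of 1; higher ones fell to 23 with normexp and to 14 in matched windows. In matched windows 21q turned to -0.0090 and the 16p segment at 33 Mb to -0.22. Beyond timing, single values moved by over 1.5 times in the early channel (19q -0.11, 20p -0.22, 11q segment 0.78, 13q segment at 90 Mb 1.02), the late channel (6p 0.40, 8p 0.64), with normexp (22q -0.47, 16q segment -0.65, 11q segment 0.83, 19p segment 1.03) and without centring (19q -0.20); after the linear fit on timing 17p stood at -0.23 and 19q at -0.19. U2OS deletions fell to 0 at a limit of 15% and to 5 with a running median of 5 probes, and a limit of 40% gave 79 in K562 and 56 in U2OS. With the mean of the channels' log2 ratios, K562 new over old sorting had 170 windows past 0.5. limma called 455 windows higher and 416 lower on all 7 arrays, 455 and 464 on the 6 of the larger design (chosen after seeing the data), 302 and 328 with the mean of log2 ratios, 383 and 461 in the early channel, 139 lower in the late channel, 323 higher with normexp, and 73 and 85 in matched windows. Leaving out single check arrays gave 39 to 416 higher and 36 to 469 lower windows, and 0 to 11 higher and 0 to 13 lower arms; with 1 array left in a line, its spread is assumed equal to the other line's. Arms called lower numbered 11 on all 7 arrays, on the 6 of the larger design and with the mean of log2 ratios, and 14 in the early channel; 4 were called higher in the late channel. No paired analysis was possible because the numbers 1 and 2 are shared only by manual and automated arrays of U2OS, and no K562 array shares them with a U2OS array as a pair. Brightness limits the depth of losses that the 44k array can show.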
